A study of Mus musculus with 8 samples.

Results

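The genes described here are 33 that cells switch on to leave G2 phase and carry out mitosis. They were chosen by name, from Mki67 and Cdk1 to Ndc80, and all 33 were found in the deposited table of 20781 genes through GENCODE M21. All 33 also passed the filter on low counts, which left 16565 genes for the test. RNA was sequenced from cultured mouse fibro-adipogenic progenitors (FAPs), the connective tissue progenitors of skeletal muscle. The cells came from uninjured hind limb muscles (tibialis anterior, gastrocnemius and quadriceps) of wild-type male C57BL/6J mice, given as C57BL/6 elsewhere in the labels. Starting 48 h after isolation, they received vehicle (4 libraries) or melatonin (4 libraries) in vitro for 24 h. The dose of melatonin, the animals' age and whether animals were pooled are not stated in the sources used here, and the labels' RNA protocol names another muscle, longissimus dorsi.

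Entry into mitosis is driven by the kinase CDK1 bound to A- and B-type cyclins. Aurora and Polo-like kinases then build the spindle, kinetochores attach chromosomes to it, and the spindle checkpoint holds the anaphase-promoting complex (APC/C) in check until every chromosome is attached. The APC/C, switched on by CDC20, destroys cyclins and lets the cell divide. Most of these genes are silent in resting cells and are transcribed late in the cycle, so their transcripts are widely read as a mark of dividing cells. FAPs rest in uninjured muscle and divide after injury or in culture.

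With melatonin, 13 of the 33 genes were higher and 0 were lower at an edgeR adjusted p under 0.05. Of all genes tested, 18.1% were called higher and 18.5% lower. The lower count was also 0 with DESeq2 (20.3% of all genes lower), with limma-voom (18.9%) and at an unadjusted edgeR p under 0.05 (22.4%). The differences were small. The genes that passed were between 16.8% (Plk1) and 53.6% (Cdca3) higher in mean CPM, which are counts per 1000000 counts of the TMM-scaled library. The median log2 fold change (melatonin over vehicle) was 0.23 over the 33 genes and 0.014 over all tested genes, and 30 of the 33 genes had a positive value. Summed over the 33 genes, expression was 460 ± 17.7 CPM with vehicle and 546 ± 39.8 CPM with melatonin (mean ± SD, n = 4), 18.9% higher. In bulk RNA a change in the number of dividing cells and a change in transcript per dividing cell cannot be told apart.

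The count of 13 rests on modest margins. It was 8 without vehicle replicate 2 and 8 without vehicle replicate 3, and 4 genes (Ccna2, Ccnb2, Cdc20 and Cdca3) passed at an adjusted p under 0.01. Scaling by library totals alone gave 21 of 33 higher, where 30.8% of all genes were called higher and 13.5% lower, and moved the median of all genes from 0.014 to 0.17. Differences below are relative to the TMM scaling.

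Total counts ran from 35584931 to 52401153 per library, of which the 33 genes took 19787 to 29174. The lowest count of any of them in any library was 103, so none was near the detection limit. Melatonin replicate 4 stood apart from the rest. It scored -54.4 on the second principal component (14.4% of variance), where the other 3 melatonin libraries scored 18.5 to 25.5. Without it 11 of the 33 genes were higher, against 19.5% of all genes, and 0 were lower, against 19.4%. Their median log2 fold change was 0.24. The labels give biological replicates without saying that they came from separate animals, so p-values measure the spread between these samples.

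**Figure D1:**
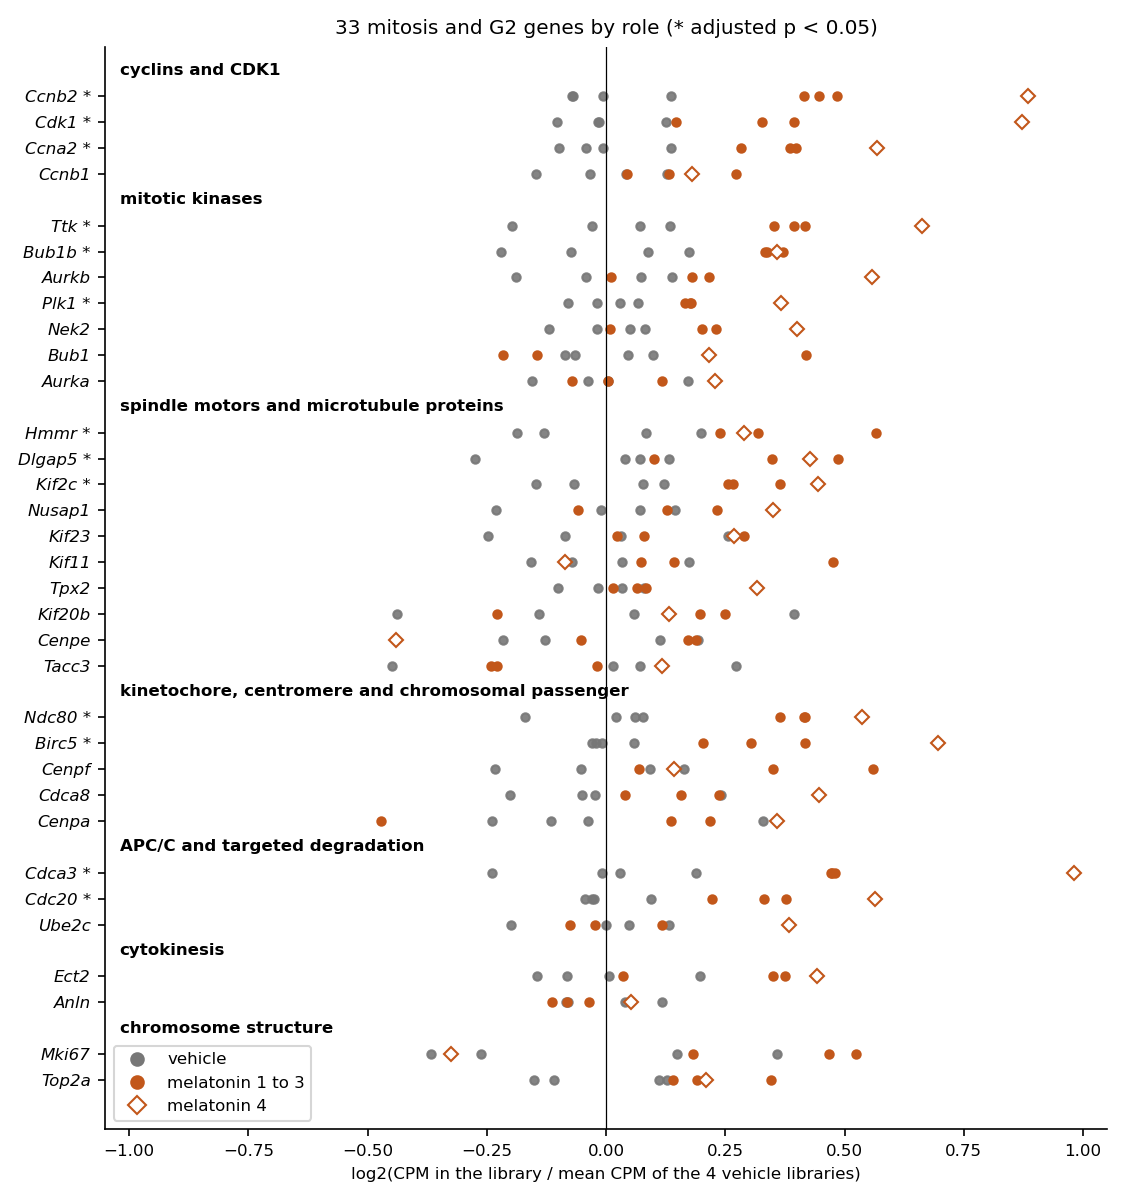
Each point is a library's CPM divided by the mean of the 4 vehicle libraries, on a log2 axis, for the 33 genes ordered by role; asterisks mark the 13 genes with an edgeR adjusted p under 0.05. Melatonin libraries lie to the right of the vehicle libraries for Ccna2, Ccnb2, Cdk1 and Cdc20 and overlap them for Ccnb1, Anln, Cenpe and Tacc3, and melatonin replicate 4 (open diamonds) is the highest melatonin library for 21 of the 33 genes.

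Promoters are shown because the genes share a feature there that the choice of genes did not use. Late cell cycle genes are known to carry a cell cycle genes homology region (CHR), which the DREAM complex binds to keep them silent in resting cells and which the B-MYB and FOXM1 complexes use later in the cycle, and CCAAT boxes, which NF-Y binds. RefSeq promoter windows on GRCm38.p6, from 250 bases before to 50 bases after the gene start, matched 29 of the 33 genes, and Aurkb, Tpx2, Ccna2 and Dlgap5 had no entry. The windows printed are those of the gene with the smallest p among those that passed, in each of 4 role groups. Capitals mark the CHR letters TTTGAA or its variant TTCGAA and the CCAAT box CCAAT, each on either strand, so that TTCAAA and ATTGG are the same motifs on the other strand.
Ccnb2 (chr9:70421505-70421804, minus strand): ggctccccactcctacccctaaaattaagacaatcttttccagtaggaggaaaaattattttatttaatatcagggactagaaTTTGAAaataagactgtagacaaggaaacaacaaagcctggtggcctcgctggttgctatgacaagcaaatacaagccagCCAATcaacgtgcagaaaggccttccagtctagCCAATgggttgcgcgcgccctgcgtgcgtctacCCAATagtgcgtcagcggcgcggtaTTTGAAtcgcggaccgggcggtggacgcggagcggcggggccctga
Cdc20 (chr4:118437294-118437593, minus strand): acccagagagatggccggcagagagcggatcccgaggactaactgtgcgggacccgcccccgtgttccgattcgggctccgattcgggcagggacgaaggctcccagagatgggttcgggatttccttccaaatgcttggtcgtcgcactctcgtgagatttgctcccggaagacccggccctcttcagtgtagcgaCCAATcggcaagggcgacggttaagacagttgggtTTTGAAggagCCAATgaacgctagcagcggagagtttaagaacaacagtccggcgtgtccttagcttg
Ndc80 (chr17:71526808-71527107, minus strand): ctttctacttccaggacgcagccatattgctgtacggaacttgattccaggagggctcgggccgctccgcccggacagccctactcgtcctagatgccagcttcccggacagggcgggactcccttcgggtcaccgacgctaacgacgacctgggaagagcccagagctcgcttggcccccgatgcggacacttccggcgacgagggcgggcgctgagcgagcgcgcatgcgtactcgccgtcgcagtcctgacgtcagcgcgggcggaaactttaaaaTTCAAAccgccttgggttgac
Bub1b (chr2:118597961-118598260, plus strand): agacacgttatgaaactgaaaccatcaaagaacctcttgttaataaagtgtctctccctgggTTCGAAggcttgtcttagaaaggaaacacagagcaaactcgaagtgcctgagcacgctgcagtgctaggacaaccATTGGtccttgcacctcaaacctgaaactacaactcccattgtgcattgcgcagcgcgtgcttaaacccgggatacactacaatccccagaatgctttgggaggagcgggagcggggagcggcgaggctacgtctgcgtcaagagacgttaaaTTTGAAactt

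All 4 windows hold the TTTGAA letters close to the gene start, and 3 of them, all but Ndc80, also hold a CCAAT box. Over the 29 windows, 22 (75.9%) held TTTGAA on either strand. The share was 18.1% over 27025 genes with a window and 12% over the 11559 of them that were tested. Among genes that passed the test 10 of 11 windows held it, and among those that did not, 12 of 18. The match began between 30 bases before and 45 bases after the start in 20 of the 29 windows, against 3.79% of all windows, a range set after the positions were seen. The variant TTCGAA was found in 3 windows (10.3%, and 1.57% of all). A CCAAT box stood in 22 windows (75.9%, and 37.9% of all), and 18 held both CHR and CCAAT (62.1%, and 7.12% of all). TTTGAA stood in 45 of 116 windows of other G2 and mitosis genes (38.8%), near the start in 26.7%, and 28.4% held both motifs. The windows of 34 genes of DNA replication, which is transcribed earlier in the cycle, held TTTGAA in 11.8% and CCAAT in 64.7%. A match of letters is a description and shows no binding in these cells.

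**Figure D2:**
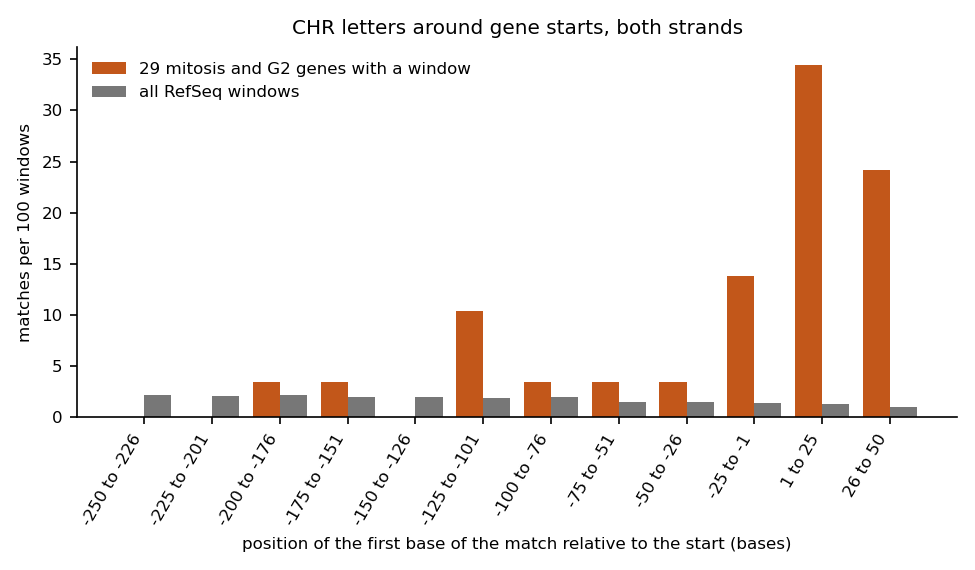
Bars give the number of TTTGAA matches on either strand per 100 promoter windows, in bins of 25 bases by distance from the gene start, for the 29 windows of the mitosis and G2 genes and for all 27025 windows. Matches in these genes gather from 25 bases before to 50 bases after the start (13.8, 34.5 and 24.1 per 100), where all windows give 1.42, 1.26 and 0.981.

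Of the 4 cyclin and CDK1 genes, 3 were higher. Ccnb2 encodes cyclin B2, a partner of CDK1 found largely at the Golgi. Its values were 12.3, 13.6, 11.8 and 11.8 CPM in vehicle replicates 1 to 4 and 17.3, 16.9, 16.5 and 22.9 CPM in melatonin replicates 1 to 4. Every melatonin library lay above every vehicle library, with replicate 4 well above the other 3 (log2 fold change 0.57 ± 0.12 SE, edgeR adjusted p = 0.0040). Ccna2, whose cyclin A2 acts in S phase and at mitotic entry, was at 18.8, 17.0, 15.98 and 16.6 CPM with vehicle. With melatonin it was at 20.8, 22.3, 22.5 and 25.3 CPM, again without overlap (0.41 ± 0.088, edgeR adjusted p = 0.0049).

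Cdk1, the gene of the mitotic kinase itself, was at 27.2, 25.6, 27.2 and 30.1 CPM with vehicle and at 36.2, 30.5, 34.5 and 50.4 CPM with melatonin. The groups only just separated, since melatonin replicate 2 lay just above the highest vehicle library, and replicate 4 was far above the rest. The log2 fold change was 0.46 ± 0.14 (edgeR adjusted p = 0.029) and 0.30 without melatonin replicate 4, where it still passed (edgeR adjusted p = 0.016). Without vehicle replicate 1, 2 or 3 it was no longer called (edgeR adjusted p = 0.068, 0.073 and 0.067). Ccnb1, which encodes the main mitotic cyclin, was the member of this group that did not pass. It was at 17.5, 18.4, 16.2 and 19.6 CPM with vehicle and at 18.5, 19.6, 21.6 and 20.3 CPM with melatonin. These ranges overlapped, and the difference was 0.16 with a 95% interval of -0.05 to 0.37 (edgeR adjusted p = 0.19).

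Of the 3 genes that feed proteins to degradation in mitosis, 2 were higher. Cdc20, the APC/C activator that the checkpoint restrains, was at 26.8, 27.2, 27.1 and 29.6 CPM with vehicle. With melatonin it was at 35.9, 32.3, 34.8 and 40.9 CPM, all above vehicle (0.38 ± 0.084, edgeR adjusted p = 0.0060). Cdca3, an adaptor that promotes destruction of the mitotic inhibitor WEE1, had the largest difference of the 33 genes. It went from 12.7, 14.2, 10.5 and 12.4 CPM to 17.3, 17.4, 17.3 and 24.6 CPM. Its groups did not overlap (0.62 ± 0.14, edgeR adjusted p = 0.0068), and without melatonin replicate 4, the highest library, the value was 0.48. Ube2c, which encodes the ubiquitin-conjugating enzyme of the APC/C, did not pass, at 29.8 ± 2.82 and 32.2 ± 4.76 CPM (0.11 ± 0.11, edgeR adjusted p = 0.49).

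Among 7 kinases of the checkpoint, spindle poles and chromosomes, 3 were higher. Bub1b encodes BUBR1, the checkpoint protein that holds CDC20 inactive. Its vehicle values were 12.03, 14.9, 13.3 and 15.8 CPM, and its melatonin values were 17.7, 17.7, 18.1 and 17.97 CPM. The melatonin libraries were nearly level and all lay above vehicle (0.35 ± 0.096, edgeR adjusted p = 0.017). Ttk, whose product MPS1 starts checkpoint signalling at unattached kinetochores, was at 2.96, 2.75, 2.46 and 3.09 CPM with vehicle. With melatonin it was at 3.76, 3.59, 3.70 and 4.45 CPM, without overlap (0.46 ± 0.13, edgeR adjusted p = 0.022). It was not called without vehicle replicate 2 or 3 (edgeR adjusted p = 0.052 and 0.060).

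Plk1, the Polo-like kinase gene, was at 22.6, 24.4, 23.6 and 25.03 CPM with vehicle and at 27.0, 27.0, 26.8 and 30.8 CPM with melatonin. The groups did not overlap, but the difference was the smallest of those that passed (0.22 ± 0.075, edgeR adjusted p = 0.042). Only without melatonin replicate 3 did it stay called, and leaving out any other library gave an edgeR adjusted p of 0.053 to 0.11. Aurkb, the kinase of the chromosomal passenger complex, was at 8.87, 10.6, 9.82 and 11.1 CPM with vehicle and at 11.8, 11.5, 10.2 and 14.9 CPM with melatonin. Melatonin replicate 3 lay within the vehicle range, and the gene did not pass (0.25, 95% interval -0.06 to 0.57, edgeR adjusted p = 0.16). Aurka, the spindle pole kinase gene, was at 13.8 ± 1.32 and 14.5 ± 1.332 CPM, with an interval of -0.18 to 0.32. Nek2, which separates centrosomes, and Bub1, a checkpoint kinase, had values of 0.22 ± 0.11 and 0.092 ± 0.15 and did not pass.

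**Figure D3:**
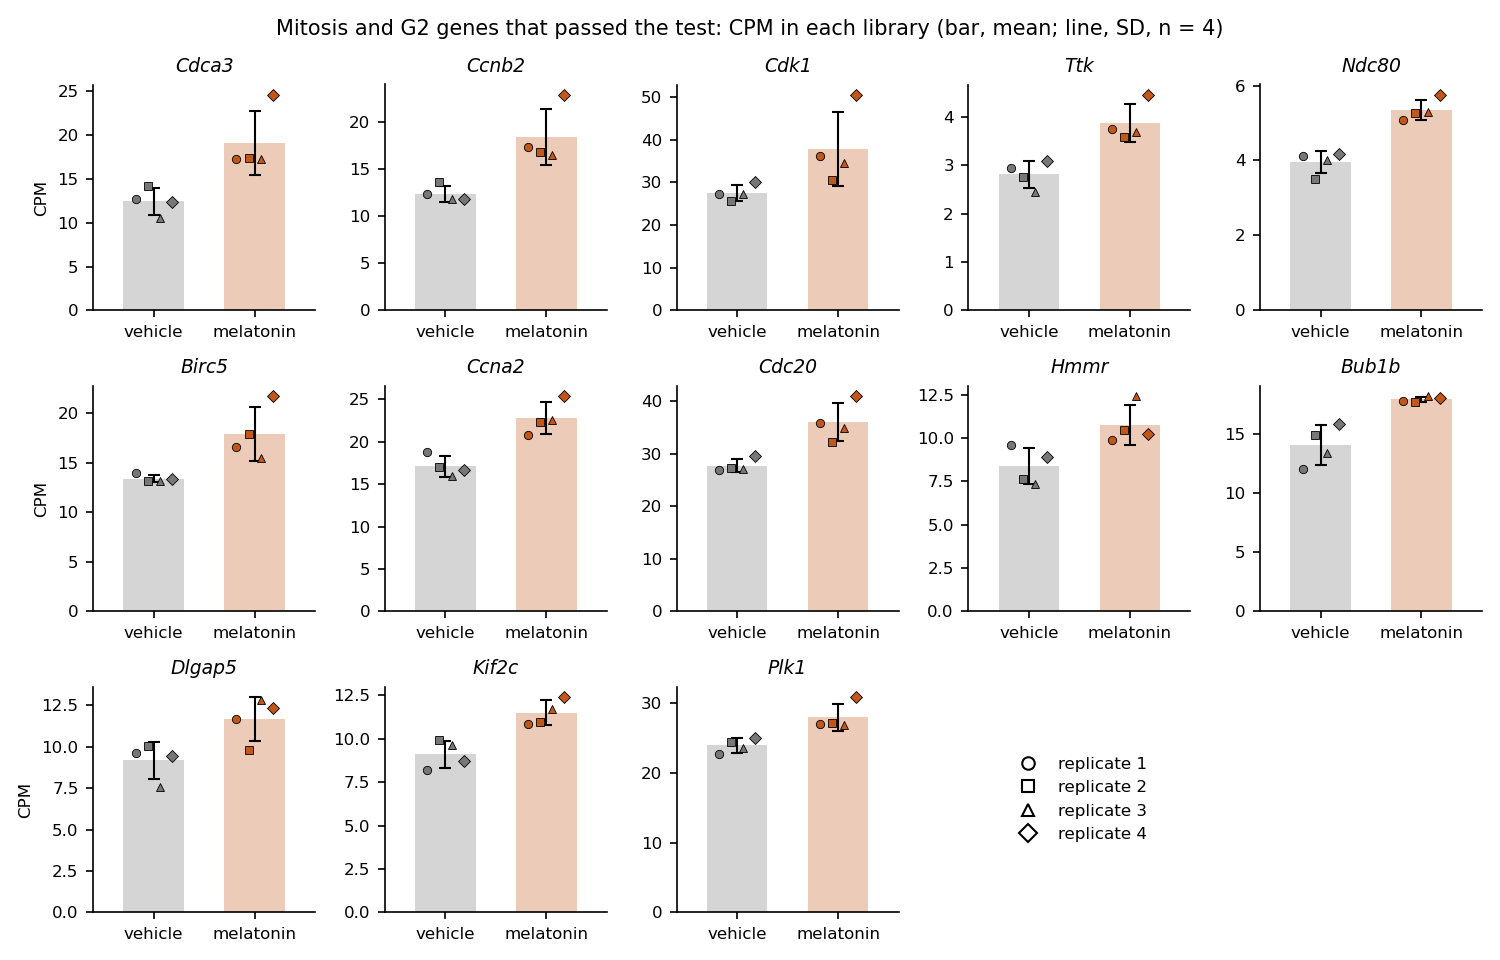
Bars show mean CPM in vehicle (grey) and melatonin (orange) for the 13 genes that passed the test, lines the SD over 4 libraries and symbols the single libraries by replicate number. Groups overlap for Dlgap5 and for no other gene shown, and melatonin replicate 4 is the highest library for 10 of the 13 genes, all but Bub1b, Hmmr and Dlgap5.

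Kinetochore and passenger genes had 2 of 5 members higher. Ndc80, the microtubule-binding core of the outer kinetochore, was at 4.12, 3.52, 4.01 and 4.17 CPM with vehicle and at 5.09, 5.27, 5.28 and 5.74 CPM with melatonin. Its groups were well apart (0.43 ± 0.11, edgeR adjusted p = 0.011). Birc5, which encodes survivin, the passenger subunit that brings Aurora B to centromeres, was at 13.98, 13.1, 13.2 and 13.3 CPM with vehicle. It was at 16.6, 17.9, 15.5 and 21.7 CPM with melatonin, where the spread was wider and replicate 4 the highest (0.42 ± 0.11, edgeR adjusted p = 0.014). Cdca8, the gene of the passenger subunit borealin, was at 11.6 ± 1.52 and 13.6 ± 1.65 CPM and did not pass (edgeR adjusted p = 0.18). Cenpa, the centromeric histone gene (0.093 ± 0.18), and Cenpf, a large kinetochore protein gene (0.29 ± 0.15), did not pass either.

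Of 10 genes for spindle motors and microtubule proteins, 3 were higher. Kif2c, a kinesin that takes microtubules apart at centromeres, was at 8.23, 9.91, 9.62 and 8.70 CPM with vehicle and at 10.9, 11.0, 11.7 and 12.4 CPM with melatonin. The groups did not overlap (0.33 ± 0.097, edgeR adjusted p = 0.022), and the call was lost without vehicle replicate 1 or 4 (edgeR adjusted p = 0.062 each). Hmmr, which encodes a spindle assembly factor first known as a hyaluronan receptor, was at 9.62, 7.66, 7.37 and 8.88 CPM and then at 9.89, 10.4, 12.4 and 10.2 CPM. Melatonin replicate 1 lay just above the highest vehicle library (0.36 ± 0.12, edgeR adjusted p = 0.040). It was not called without vehicle replicate 2, 3 or 4 or melatonin replicate 2 or 3 (edgeR adjusted p = 0.062 to 0.11). Dlgap5, a protein gene of the fibres that pull on kinetochores, was at 9.64, 10.05, 7.58 and 9.42 CPM and then at 11.7, 9.83, 12.8 and 12.3 CPM. Melatonin replicate 2 fell inside the vehicle range, and the gene passed narrowly (0.35 ± 0.12, edgeR adjusted p = 0.048). Of the 8 libraries, only leaving out melatonin replicate 2 kept its call, and without each other library the edgeR adjusted p was 0.053 to 0.12.

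The other 7 spindle genes did not pass. Kif11, the motor that pushes spindle poles apart, Kif23, a motor of the central spindle, and Nusap1, which bundles microtubules, each had a log2 fold change of 0.17. Tpx2, which activates Aurora A on the spindle, was at 26.8 ± 1.4 and 29.2 ± 2.82 CPM. Kif20b, a kinesin of late division, had a value of 0.096 ± 0.19. Cenpe, the kinetochore motor, was at -0.010 ± 0.16 and Tacc3, which crosslinks kinetochore fibres, at -0.085 ± 0.15. Both of these signs turned positive with library totals.

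Neither the cytokinesis genes nor those of chromosome structure passed, Mki67 and Top2a, common marks of dividing cells, included. Mki67, which encodes the Ki-67 protein of the chromosome surface, was at 22.7, 14.8, 13.7 and 19.7 CPM with vehicle and at 20.1, 24.5, 25.5 and 14.2 CPM with melatonin. Melatonin replicate 4 was among the lowest of all 8 libraries for this gene, while replicates 2 and 3 were the highest. The log2 fold change was 0.25 with a 95% interval of -0.27 to 0.77 (edgeR adjusted p = 0.40), the largest standard error of the 33 genes (0.21). Top2a, the topoisomerase that untangles sister chromatids, was at 45.2, 38.3, 37.2 and 44.7 CPM and then at 47.2, 45.6, 52.6 and 47.8 CPM. It was the only gene whose groups did not overlap without passing (0.22 ± 0.086, edgeR adjusted p = 0.068). Ect2, which switches on RhoA for the cleavage furrow, was at 5.2 ± 0.55 and 6.43 ± 0.762 CPM (edgeR adjusted p = 0.086, and 0.037 without melatonin replicate 1, where it was called). Anln, the furrow scaffold anillin, was at 25.8 ± 1.76 and 25.02 ± 1.25 CPM, with an interval of -0.23 to 0.14, and its sign turned with library totals.

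In all, the 4 melatonin libraries lay above the 4 vehicle libraries for 13 of the 33 genes, of which 12 had passed, beside 18.5% of the genes tested. They lay below them for 0 of the 33 genes, against 19.2% of all.

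The values of melatonin replicate 4 varied with the length of the gene. Against the mean of the other 3 melatonin libraries, it was higher for all 16 of the shortest genes (exon length 1531 to 4516 bases), with a median log2 difference of 0.25. For the 16 longest (4919 to 15433 bases) it was higher in 10, and the lowest values were those of Mki67 (-0.72), Cenpe (-0.55), Kif11 (-0.33) and Cenpf (-0.20). Over the 33 genes this difference had a correlation of -0.64 with log2 exon length, a description of points that share 1 library. Other libraries also varied with length over these genes. Deviation from the rest of the group had a correlation of 0.66 in melatonin replicate 3 and -0.63 in replicate 4. It was 0.49 in vehicle replicate 1, -0.45 in replicate 2 and -0.29 to 0.21 in the remaining libraries. The deviations within a group depend on one another. Over 16532 tested genes with a length, each library's deviation from the rest of its group had a correlation with log2 exon length of -0.25 in melatonin replicate 4 and -0.17 in vehicle replicate 2. In the other 6 libraries it was 0.0016 to 0.23. Without these 2 libraries 9 of the 33 genes were higher (18.2% of all) and 0 lower (18.7% of all), and with each library's trend with length taken out 15 were (19.2% of all) and 0 lower (19.7% of all), Cenpf and Top2a being added to the 13. Both settings were chosen after the data were seen. The share of counts from the mitochondrial genome ran from 1.047% to 1.301% with vehicle and from 2.09% to 2.44% with melatonin, without overlap between the groups. The part of RNA quality in these differences was not tested.

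**Figure D4:**
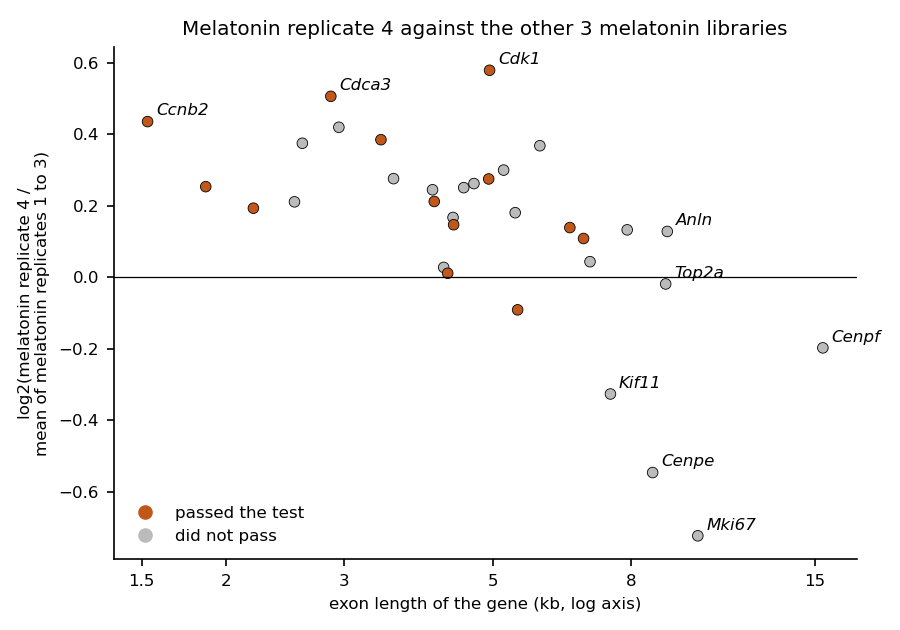
Each point is a gene, with exon length in kb on a log axis and, on the other axis, the log2 ratio of CPM in melatonin replicate 4 to the mean of melatonin replicates 1 to 3; orange points passed the test. Short genes such as Ccnb2 and Cdca3 lie above 0 and the long genes Kif11, Cenpe, Mki67 and Cenpf below it, with Cdk1 the highest.

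Per length, the genes spanned a wide range of levels. In CPM per kb of exon in the vehicle libraries, Cdc20 (14.8), Ube2c (11.5), Plk1 (10.9) and Ccnb2 (8.09) were the highest. Kif20b (0.44) and Cenpf (0.254) were the lowest. Length here is the union of a gene's annotated exons, which can exceed that of its transcripts, and the order depends on it. Cdk1 (27.5 CPM, 4934 bases) and Cdc20 (27.7 CPM, 1868 bases) had similar CPM but 5.58 and 14.8 CPM per kb. Melatonin raised Ccnb2 to 12.01 and Cdc20 to 19.3 CPM per kb. Among vehicle libraries, replicate 3 was the lowest for 15 of the 33 genes and the highest for 1, and its summed level over the genes was the lowest of the 8 libraries, at 434 CPM. The other vehicle libraries summed to 465, 466 and 474 CPM, and melatonin replicates 1 to 4 to 518, 519, 545 and 603 CPM. The groups did not overlap in this sum, and without melatonin replicate 4 it was 14.7% higher than with vehicle.

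The rest of the mitotic machinery was read from a list of 137 further genes, all tested. Of these, 44 (32.1%) were higher and 3 (2.19%) lower, beside 18.1% and 18.5% of all genes. Their median log2 fold change was 0.21. The higher genes with the smallest p were Stmn1, whose product stathmin destabilises microtubules (30.7 ± 1.66 to 58.6 ± 9.26 CPM), Pkmyt1, which encodes an inhibitory kinase of CDK1 (7.6 ± 0.551 to 12.6 ± 0.694 CPM), and Ncapd2, a condensin subunit gene (29.2 ± 2.06 to 41.0 ± 1.71 CPM). The lower genes were Nek6, a mitotic kinase gene (-0.22 ± 0.061), and the APC/C subunit genes Anapc4 (-0.27 ± 0.077) and Anapc15 (-0.27 ± 0.087). None of these 3 stayed called with library totals. Nek6 lost its call without vehicle replicate 4 or melatonin replicate 1 or 3 (edgeR adjusted p up to 0.077) and Anapc4 without vehicle replicate 4 or melatonin replicate 1 (up to 0.063). Anapc15 lost it without any library other than vehicle replicate 1 (edgeR adjusted p up to 0.11). By role, 13 of 37 kinetochore and checkpoint genes, 13 of 34 spindle genes and 8 of 18 genes of entry kinases, phosphatases and CKS proteins were higher. Of condensin and cohesin genes 4 of 22 were higher, of APC/C genes 4 of 17 and of cytokinesis genes 2 of 9. These shares (18.2%, 23.5% and 22.2%) lie near the 18.1% of all genes called higher.

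Genes of the steps before mitosis were compared with the same fit, in which 18.1% of all genes tested were higher and 18.5% lower. Of 44 genes of DNA replication and S phase, 26 (59.1%) were higher and 0 lower (0 also at an unadjusted p under 0.05), with a median of 0.38. The replicative helicase genes Mcm2 (0.61 ± 0.065) and Mcm7 (0.65 ± 0.07) and Ung, which encodes a uracil-removing DNA repair enzyme (1.15 ± 0.13), had the smallest p. The larger share and median in this list than in the 33 genes are a description, and the difference was not tested. Of 21 genes of G1 control, 8 (38.1%) were higher and 4 (19%) lower. The share lower lies near the 18.5% of all genes. Ccnd1, the cyclin D1 gene, fell from 422 ± 40.5 to 209 ± 21.6 CPM, Cdk6, a kinase gene of G1, from 28.7 ± 1.77 to 15.6 ± 1.74 CPM, and Cdkn1a, which encodes the CDK inhibitor p21, from 783 ± 45.2 to 509 ± 19.3 CPM. The CDK inhibitor genes Cdkn2c (21.1 ± 1.21 to 38.4 ± 0.352 CPM) and Cdkn2b (129.8 ± 5.68 to 205 ± 9.79 CPM) and the growth arrest gene Gas6 (0.72 ± 0.098) rose. Inhibitor genes moved in both directions.

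Of 24 regulators of late cell cycle transcription 4 were higher and 1 lower, with a median of 0.14. The share higher, 16.7%, lies near the 18.1% of all genes. The gene of the activator E2F1 rose from 53.4 ± 2.59 to 72.0 ± 1.7 CPM (E2f1, 0.43 ± 0.06). Of the MuvB core that sits at CHR promoters, Lin52 (0.68 ± 0.11) and Lin37 (0.53 ± 0.11) rose and Lin9 fell from 4.07 ± 0.585 to 2.75 ± 0.27 CPM. The core genes Rbbp4 and Lin54 are named after their values were seen. Rbbp4 was the other higher regulator (0.24 ± 0.082, edgeR adjusted p = 0.043), and without any 1 vehicle library it was not called (edgeR adjusted p = 0.061 to 0.12). Lin54 did not pass (0.23 ± 0.098, edgeR adjusted p = 0.093), but it did without melatonin replicate 4 (edgeR adjusted p = 0.037). With library totals Lin9 was not called (edgeR adjusted p = 0.055). Mybl2, which encodes B-MYB, was at 5.93 ± 0.5 and 6.73 ± 0.359 CPM and did not pass (edgeR adjusted p = 0.20), but it was called higher with library totals (edgeR adjusted p = 0.025). Foxm1, the forkhead activator gene of mitotic transcription, was at 7.3, 12.2, 17.5 and 19.8 CPM with vehicle and at 9.1, 24.0, 22.9 and 5.18 CPM with melatonin. Its spread within each group was several times its difference (0.11 ± 0.53), its sign changed between settings, and melatonin replicate 4 was the lowest of the 8 libraries.

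**Figure D5:**
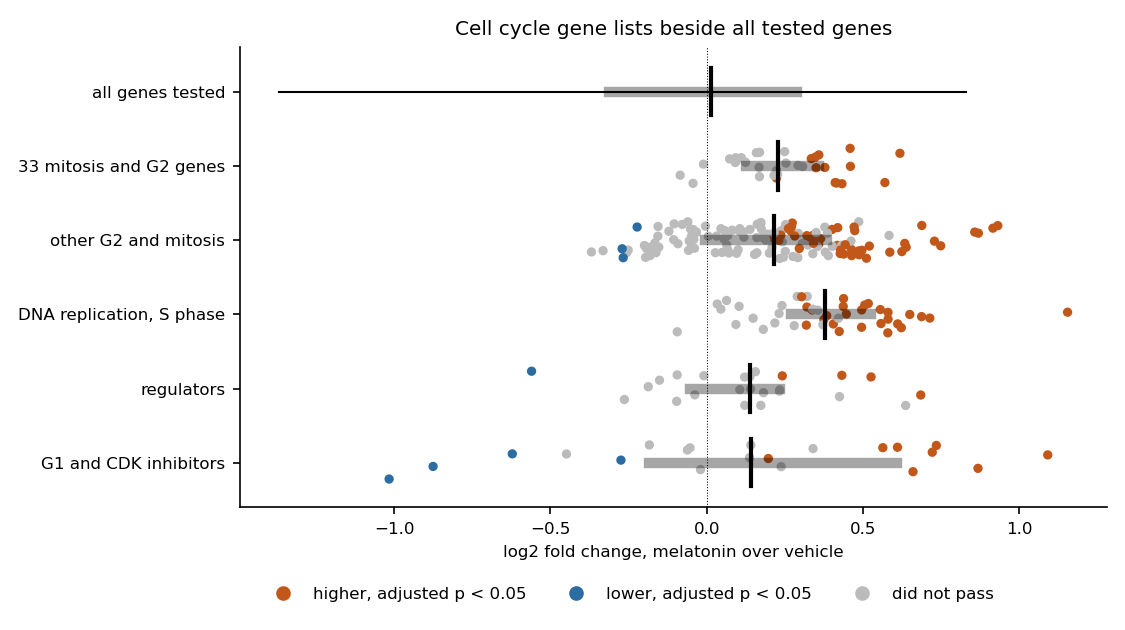
Points are genes by log2 fold change (melatonin over vehicle), orange where higher and blue where lower at an edgeR adjusted p under 0.05; black lines are medians, grey bars the middle 50% of genes and, for all tested genes, the thin line spans the 5th to 95th percentile. Medians were 0.23 for the 33 mitosis and G2 genes, 0.21 for the other mitosis genes and 0.38 for the replication genes, beside 0.014 for all tested genes.

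Markers of other cell types in the culture were read alongside, since any dividing cell adds to these transcripts. FAP genes were abundant in both groups, with Pdgfra at 570 ± 52.2 and 465 ± 74 CPM. With melatonin 8 of 12 were lower and 1, Gsn, was higher, beside 18.5% and 18.1% of all genes tested. Their sum was 26851 to 31927 CPM with vehicle and 13949 to 16533 CPM with melatonin. The collagen genes Col1a1 (13770 ± 1328 to 6658 ± 387 CPM) and Col3a1 (12415 ± 1038 to 5741 ± 644 CPM) made up most of that sum. Pdgfra, Cd34 (139 ± 14.9 to 119 ± 9.55 CPM) and Pi16 did not pass. Of 13 tested markers of macrophages and other leukocytes, 4 were higher and 1 lower, and their sum ran from 482 to 738 CPM with vehicle and from 335 to 637 CPM with melatonin. The mean of that sum differed by -7.94% with melatonin against vehicle and by 3.93% without melatonin replicate 4. Lyz2 (444 ± 84.6 to 398 ± 97.7 CPM), which did not pass, made up most of it, so the sum says little about the other markers. The markers named here were chosen after their values were seen. The higher ones were the complement genes C1qa (2.39 ± 0.843 to 4.71 ± 1.2 CPM), C1qb (6.15 ± 1.78 to 14.5 ± 4.82 CPM) and C1qc (4.55 ± 0.972 to 11.01 ± 4.22 CPM) and the mannose receptor gene Mrc1 (1.36 ± 0.126 to 2.72 ± 1.28 CPM), and the lower one was Csf1r (29.03 ± 4.88 to 17.2 ± 5.35 CPM). Only C1qb and C1qc of these 5 kept their call whichever library was left out. Ptprc, which marks all leukocytes, was at 3.2 ± 0.491 and 1.9 ± 0.851 CPM and did not pass (edgeR adjusted p = 0.099). Of 8 satellite cell and myoblast markers 1 was higher and 2 lower (633 to 831 and 439 to 596 CPM). Pax7 and Myf5 had no row in the deposited table, where the lowest total of a gene over the 8 libraries was 11 counts. The lower ones were Vcam1 (543 ± 87.1 to 379 ± 29.9 CPM) and Ncam1 (76.4 ± 7.33 to 39.5 ± 1.94 CPM), which make up most of that sum, and the higher one was Itga7 (24.1 ± 1.55 to 31.3 ± 5.15 CPM). Itga7 kept its call only without melatonin replicate 4, and leaving out any other library gave an edgeR adjusted p of 0.057 to 0.092. The muscle transcription factor gene Myod1 was at 2.52 ± 0.527 CPM with vehicle and at 5.6, 6.9, 3.84 and 1.39 CPM in melatonin replicates 1 to 4, and did not pass. Melatonin replicate 4 had the lowest sum of the 8 libraries for the FAP, leukocyte, satellite cell and pericyte markers. It also had the lowest sum of the 4 melatonin libraries for the endothelial, Schwann cell and adipocyte markers. Endothelial markers had 2 of 10 higher (20%, near the 18.1% of all genes) and 1 lower, with sums of 39.7 to 48.2 and 59.6 to 70.3 CPM. Tek (17.1 ± 1.51 to 35.3 ± 3.61 CPM) and Egfl7 (5.16 ± 0.716 to 10.3 ± 1.1 CPM) were higher and carried most of that rise. Vwf fell from 2.48 ± 0.77 to 0.576 ± 0.383 CPM, and the other 7 markers did not pass. Pericyte markers had 2 of 9 higher and 1 lower (659 to 743 and 565 to 777 CPM). Pdgfrb (551 ± 24.5 to 527 ± 56.4 CPM), which did not pass, made up most of the pericyte sum. Of 3 tested Schwann cell markers 1 was higher (15.6 to 16.8 and 17.1 to 19.8 CPM). Of 9 adipocyte markers 8 were higher, with sums of 808 to 902 and 2026 to 2766 CPM. The part of any of these cells in the differences of the mitosis genes was not tested.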

How the data were processed

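The authors deposited whole-number counts per Ensembl gene for 8 libraries. Build mm10 and these tools are listed, with no order, in the submitters' processing notes: HISAT2 (2.0), StringTie (1.3.3b), DESeq2 (1.12.4), FastQC (0.11.2), bedtools (2.26.0) and Trimmomatic (0.36). Counter, annotation release and strandedness are not stated in the sources used here, so a gene cannot be told from an overlapping antisense partner. Columns prefixed as a control were read as vehicle, the only other group. Symbols and exon lengths (union of exons) came from GENCODE M21 on GRCm38, which held 20720 of the 20781 IDs.

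Counts were filtered with filterByExpr, scaled with TMM and compared by the robust quasi-likelihood F-test of edgeR 4.0.16 with group as the only term. P-values were adjusted by Benjamini-Hochberg over all 16565 tested genes, with a threshold of 0.05. A standard error is the log2 fold change divided by the square root of F, and 95% intervals use the residual degrees of freedom of the 8 libraries. The same counts were also run through limma-voom (limma 3.58.1), DESeq2 1.42.0, other scalings, filters and thresholds, a fit with replicate number as a blocking term, and fits lacking 1 library at a time. The steps were tested on simulated counts, where DESeq2 made more false calls than edgeR.

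Every one of the 33 genes is named. From the other cell cycle lists up to 3 genes in each direction are named, taken by smallest p among those that passed, and 5 genes whatever their result. The genes and lists were chosen with earlier results of these data known.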

Additional observations from a re-analysis of the deposited data

Results flagged for a closer look

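In 110 groups of 4 libraries (33 mitosis and G2 genes, their sum and 21 other named genes, each with vehicle and with melatonin), 5 held a library far from the other 3 by Dixon's test, which chance gives in about 1 group in 20. Melatonin replicate 4 was that library for Cdca3 (24.6 CPM), Ccnb2 (22.9 CPM) and Plk1 (30.8 CPM), in each case as the highest. Vehicle replicate 4 was the highest for Cdc20 (29.6 CPM) and for Ung (1.9 CPM).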

How the results depend on the processing

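DESeq2, limma-voom and the fit without robust estimation each called the same 13 of the 33 mitosis and G2 genes, and DESeq2's size factors, no filter and the stricter filter called 12. Leaving out 1 library gave 8 to 12 genes higher and 0 lower, library totals 21, an adjusted p under 0.01 4 and the replicate number as a block 9. At an adjusted p under 0.01, 3865 of all genes and 20 of the other mitosis genes were called; the block left 29 of the latter. The median log2 fold change of the 33 genes was 0.38 with library totals and 0.21 to 0.28 with a library left out. Same-numbered libraries of the groups did not deviate together over all tested genes (correlations -0.046 to 0.035). Deviations of single libraries, such as melatonin replicate 4, weigh on these correlations. They therefore cannot tell whether same-numbered libraries came from the same animals or isolation.

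Signs changed for genes near 0. Cenpe was at 0.15 with library totals, 0.046 without melatonin replicate 4 and vehicle replicate 2, 0.017 with offsets for length and -0.076 to 0.11 with 1 library left out. Tacc3 was at 0.076 and Anln at 0.11 with library totals, Anln at 0.0032 with offsets, and Foxm1 at -0.029 with limma-voom and -0.0081 with the block. With 1 library left out, Tacc3 ran from -0.21 to 0.017, Bub1 from -0.024 to 0.19, Kif20b from -0.025 to 0.26 and Foxm1 from -0.19 to 0.40. Counts per library ran from 103 to 200 for Kif20b, from 176 to 391 for Cenpe and from 192 to 359 for Bub1. They ran from 583 to 861 for Tacc3 and from 996 to 1389 for Anln. The cause of the sign changes was not tested.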
